A study of Homo sapiens with 9 samples.

Results

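The genes described here encode enzymes and regulators of cholesterol and fatty acid synthesis, read across the cell line B6TC and the breast cancer lines taken as its parents, ER-negative MDA-MB-231 and ER-positive ZR-75-1. The 37 genes were listed by name, and every probe set of the array whose platform symbol was one of them was taken, which gave 79 of the 54675 probe sets and 34 of the 37 genes. For CYP51A1 and ELOVL1 the probe set carried a second symbol and was assigned through its RefSeq accession. FDFT1 and ACSL3 were not analysed here, and FADS1 is not reported because each of its 3 probe sets also carries the symbol of a microRNA gene. All 34 genes had a probe set that passed the filter on low values, a log2 value of 6 or more on at least 3 of the 9 arrays, as did 63 of the 79 probe sets.
The MDA-MB-231 cells were a G418-resistant clone, MDA-MB-231/GFP/Neo, and the ZR-75-1 cells were a pool selected with puromycin, ZR-75-1/GFP/puro. B6TC is GFP+ and estrogen-independent. It was grown out, under G418, from a mouse tumor raised without estrogen from cells taken from bone marrow. All 3 lines thus carry GFP, and all were kept in the same serum-supplemented medium. Each line was hybridized on 3 arrays that the labels call technical replicates, so p-values measure the spread between arrays of a line, which may be technical.
Cholesterol is built from acetyl-CoA through mevalonate, isoprenoid pyrophosphates and squalene, which is closed into lanosterol and then trimmed by demethylases, reductases and an isomerase. Fatty acids are built from the same acetyl-CoA, which ATP citrate lyase (ACLY) supplies from citrate, and are then desaturated, elongated and joined to coenzyme A. SREBP transcription factors, encoded by SREBF1 and SREBF2, drive both routes when sterols are scarce, with SCAP as their escort and the INSIG proteins as the brake that holds them in the endoplasmic reticulum. Breast cancer cells are known for active synthesis of fatty acids and sterols.

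SREBPs bind the sterol regulatory element together with NF-Y, which recognizes the CCAAT box. The 250 bases before the transcription start were searched on both strands for TCACNCCAC (a sterol regulatory element), CCAAT and CACGTG (an E-box, which SREBPs can also bind). Promoter windows of RefSeq genes on GRCh38.p14 were matched by symbol for 33 of the 37 genes. Some genes had several windows, ACSL1 the most with 5, and a gene counted where any of its windows matched. CCAAT or its reverse complement was in a window of 24 of the 33 genes, or 72.7%, against 42.2% of the 9010 genes tested on the array that had a window. By role, it was in 5 of 6 mevalonate genes, in 8 of 9 from squalene to cholesterol, in 2 of 5 regulators and in 3 of 3 fatty acid synthesis genes. It was also in 3 of 6 desaturases and elongases and in 3 of 4 synthetases. TCACNCCAC was in 2 of the 33 genes, SREBF2 and ACSL1, against 1.25% of tested genes. CACGTG was in 4 of the 33 genes (12.1%, against 11.5%), namely SC5D, INSIG1, SCAP and ELOVL5. GGGCGG (a GC box) was also counted, and is not marked below. It was in 31 of the 33 genes, or 93.9%, against 76.0% of tested genes. A match is a string of letters and not a measured binding site. Only these exact letters within 250 bases were searched, so a gene without a match may still have such an element. The 150 bases before the start are shown for SREBF2 and INSIG1, a regulator and the brake of the pathway, for sterol genes that lay between, above or below the parental lines in B6TC, and for ACSL4, whose difference was the widest among the members. The windows of these genes are the sole ones of their gene in the table. They run 5′ to 3′ along the gene's strand, capitals mark matches to the first 3 motifs on either strand, and ATTGG is CCAAT read from the other strand.
SREBF2 (chr22:41832955-41833104, plus strand): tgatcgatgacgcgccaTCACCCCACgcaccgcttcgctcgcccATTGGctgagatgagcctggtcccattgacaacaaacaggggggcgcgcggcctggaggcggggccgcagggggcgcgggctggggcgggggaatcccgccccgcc
INSIG1 (chr7:155297728-155297877, plus strand): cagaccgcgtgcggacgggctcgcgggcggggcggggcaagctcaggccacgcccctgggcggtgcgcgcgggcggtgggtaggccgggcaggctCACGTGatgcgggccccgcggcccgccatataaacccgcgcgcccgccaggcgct
MVD (chr16:88663092-88663241, minus strand): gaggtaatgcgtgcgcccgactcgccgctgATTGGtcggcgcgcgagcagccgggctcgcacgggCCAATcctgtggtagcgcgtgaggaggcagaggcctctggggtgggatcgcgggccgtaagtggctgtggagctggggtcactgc
LSS (chr21:46228775-46228924, minus strand): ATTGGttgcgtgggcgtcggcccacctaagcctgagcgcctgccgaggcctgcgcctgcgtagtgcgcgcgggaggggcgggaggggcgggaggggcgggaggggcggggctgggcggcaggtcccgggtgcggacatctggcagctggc
CYP51A1 (chr7:92134478-92134627, minus strand): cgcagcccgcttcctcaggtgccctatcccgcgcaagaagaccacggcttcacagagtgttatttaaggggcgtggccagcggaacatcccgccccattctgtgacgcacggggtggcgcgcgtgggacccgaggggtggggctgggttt
TM7SF2 (chr11:65111722-65111871, plus strand): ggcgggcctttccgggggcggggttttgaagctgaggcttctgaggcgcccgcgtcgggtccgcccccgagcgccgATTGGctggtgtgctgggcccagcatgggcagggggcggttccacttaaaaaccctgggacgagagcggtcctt
MSMO1 (chr4:165327519-165327668, plus strand): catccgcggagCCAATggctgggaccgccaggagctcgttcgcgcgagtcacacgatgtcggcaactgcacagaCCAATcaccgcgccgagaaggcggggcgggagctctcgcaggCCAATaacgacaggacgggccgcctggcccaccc
EBP (chrX:48521658-48521807, plus strand): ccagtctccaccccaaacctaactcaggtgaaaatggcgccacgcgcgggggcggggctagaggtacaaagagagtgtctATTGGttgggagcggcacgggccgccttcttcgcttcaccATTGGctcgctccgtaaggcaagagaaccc
ACSL4 (chrX:109733258-109733407, minus strand): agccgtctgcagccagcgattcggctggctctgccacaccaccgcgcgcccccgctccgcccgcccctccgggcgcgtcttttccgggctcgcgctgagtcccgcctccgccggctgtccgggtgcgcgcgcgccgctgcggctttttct
MSMO1 carried 3 CCAAT boxes in this stretch and EBP and MVD carried 2 each, whereas CYP51A1 and ACSL4 carried no match to the 3 marked motifs.

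Of the 17 genes from acetyl-CoA to cholesterol, 9 were highest in ZR-75-1 and lowest in MDA-MB-231 with B6TC in between, each difference past the test. B6TC lay between the parental lines, in either order, at 21.7% of all tested genes, and this order alone was not counted over them. Of these 9, HSD17B7 did not pass against MDA-MB-231 in some runs with 1 array left out. Between the parental lines, 20 of the 34 genes were lower in MDA-MB-231 and 8 higher (82.4% called, against 84.4% of the 10922 tested genes). The lower calls made up 58.8% of the members and 42% of all tested genes, the higher calls 23.5% and 42.5%. The arrays of the parental lines did not overlap at 29 genes (85.3%, against 85.6%), and 2 members were at least 2-fold higher and 10 at least 2-fold lower in MDA-MB-231 (5.88% and 29.4%, against 16.2% and 15.6%). B6TC was lower than ZR-75-1 at 19 genes and higher at 11 (88.2% called, against 84.4%), with 32.4% of members higher and 55.9% lower against 42.7% and 41.8% of tested genes, 31 members without overlap (91.2%, against 87.5%) and a median log2 difference of −0.41 against −0.0060 over all tested genes. That median was −0.10 over the 20 members left without probe sets that may bind several transcripts, and −0.70 over the 26 left by a filter on level and variation. Against MDA-MB-231 the direction was the other way. B6TC was higher at 18 genes, lower at 8 and not called at 8 (76.5% called, against 64.9%), with 52.9% of members higher against 36.4% of tested genes and 23.5% lower against 28.5%, and the median log2 difference was 0.21 against 0.035. The arrays of the 2 lines did not overlap at 26 of the 34 genes in that comparison, against 70.9% of tested genes. At least 2-fold changes were seen at MSMO1, which was higher, and EBP, which was lower (2.94% in each direction, against 2.68% and 1.03% of tested genes). From ZR-75-1, 2 members were at least 2-fold higher and 6 at least 2-fold lower (5.88% and 17.6%, against 17.5% and 13.9%).

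**Figure D1:**
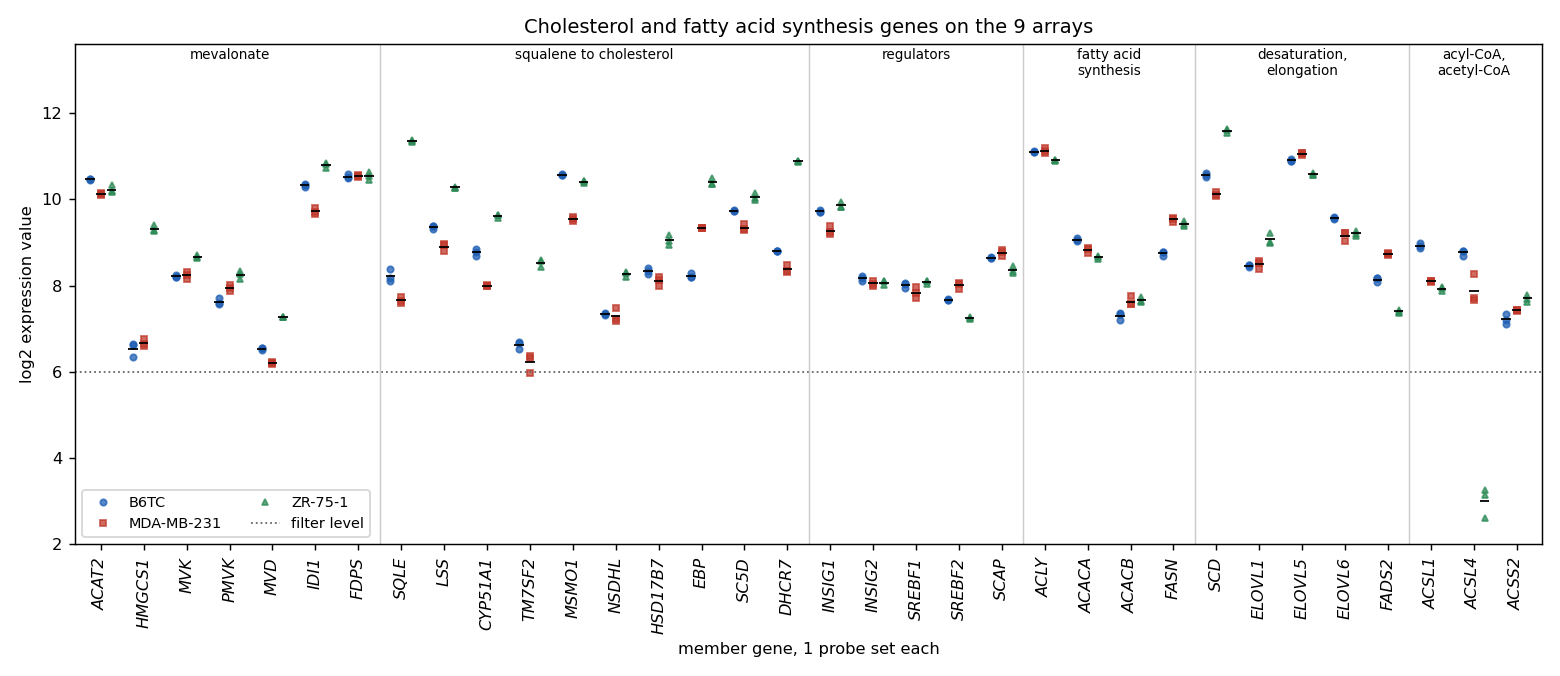
Log2 expression (y axis) of the 34 member genes (x axis, grouped by role), 1 probe set per gene; each point is 1 array, black bars are means of 3 arrays, and the dotted line is the filter level of 6. ZR-75-1 (green triangles) is highest at most genes of the mevalonate and sterol groups, and ACSL4 in ZR-75-1 alone has a mean below the filter level, at 3.00.

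**Figure D2:**
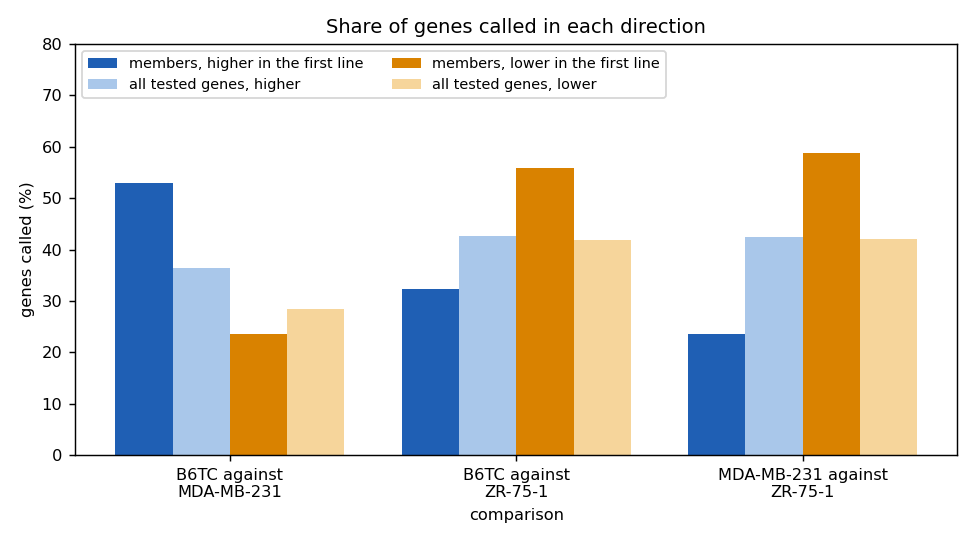
Percentage of genes called higher or lower (y axis) in the first line of each comparison (x axis), for the 34 members (dark bars) and all 10922 tested genes (light bars). The members were called higher in B6TC relative to MDA-MB-231 at 52.9% against 36.4%, and lower than in ZR-75-1 at 55.9% against 41.8%.

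Marker genes were read to check the labels. All 6 luminal markers (ESR1, GATA3, FOXA1, KRT19, CDH1 and EPCAM) were lower and all 5 mesenchymal markers (VIM, CAV1, AXL, ETS1 and ZEB1) higher in B6TC and in MDA-MB-231 than in ZR-75-1 by limma. The 6 hematopoietic and 4 adipocyte markers stayed under the filter, with line means of at most 5.68 and 5.17. The third B6TC array stood apart from the others on luminal markers, toward ZR-75-1. CDH1 (E-cadherin) read 3.38, 3.26 and 6.89 on the 3 B6TC arrays, GATA3 (a luminal transcription factor) 8.19, 8.22 and 9.54, KRT19 (a keratin) 7.59, 7.61 and 8.42 and EPCAM (an epithelial adhesion protein) 8.18, 8.15 and 8.72. FOXA1 differed less, at 6.38, 6.26 and 6.54, and ESR1 was not highest on that array, at 6.46, 6.21 and 6.24. The ESR1 probe set is of a kind that may bind several transcripts. Its means were close to the filter level in B6TC and MDA-MB-231, at 6.30 and 6.64, and 7.19 in ZR-75-1. Of the mesenchymal markers, VIM read 13.64, 13.61 and 13.61 and ETS1 10.96, 10.90 and 10.76. The part of this array in the results for the members was not tested beyond leaving it out. The array exceeded the average of its companions at 8 of the 10 members at least 2-fold higher in ZR-75-1 than in MDA-MB-231, by a median of 0.045 over the 10 and by at most 0.23 on the log2 scale. Without it the counts were 17 higher and 7 lower than MDA-MB-231, and 11 higher and 19 lower than ZR-75-1, and B6TC lay between the parental lines at 13 members, above both at 6 and below both at 4. RNA came from whole cultures, in which a level shared by all cells and a mixture of cells at different levels cannot be told apart.

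Of the 7 genes of the mevalonate steps, 5 were lower in B6TC relative to ZR-75-1, 1 was higher and 1 was not called, with a median log2 difference of −0.47. Against MDA-MB-231, 3 were higher, 1 was lower and 3 were not called. Over all tested genes, 42.7% were higher and 41.8% lower than ZR-75-1, and 36.4% were higher and 28.5% lower than MDA-MB-231. HMGCS1, which encodes the cytosolic HMG-CoA synthase at the head of the mevalonate route, read 6.35, 6.61 and 6.63 for B6TC, against 6.77, 6.59 and 6.64 in MDA-MB-231 cells and 9.26, 9.28 and 9.40 in ZR-75-1 cells. Both B6TC and MDA-MB-231 lay far below ZR-75-1, and their own arrays overlapped. The log2 difference of B6TC was −2.78 (SE 0.083, limma adjusted p = 3.21e-10) from ZR-75-1, a 6.87-fold lower level, and −0.14 (SE 0.083, limma adjusted p = 0.174) from MDA-MB-231. The other HMGCS1 probe set passed the filter through ZR-75-1 alone, with means of 4.61 in B6TC and 5.18 in MDA-MB-231, both under the filter level, so no difference is read from it between these lines.
IDI1, the isomerase that turns isopentenyl pyrophosphate into its allylic form, read 10.34, 10.28 and 10.36 for B6TC, against 9.79, 9.67 and 9.71 in MDA-MB-231 cells and 10.82, 10.85 and 10.73 in ZR-75-1 cells. No arrays overlapped between any pair of lines, and B6TC lay about midway. B6TC differed by 0.60 (SE 0.052, limma adjusted p = 5.49e-06) relative to MDA-MB-231 and by −0.47 (SE 0.052, limma adjusted p = 9.69e-06) from ZR-75-1. MVD, which decarboxylates mevalonate pyrophosphate, read 6.55, 6.51 and 6.55 for B6TC, against 6.20, 6.23 and 6.17 in MDA-MB-231 cells and 7.27, 7.28 and 7.28 in ZR-75-1 cells. It followed the same order, with B6TC nearer to MDA-MB-231. Its differences were 0.34 (SE 0.04, limma adjusted p = 3.98e-05) and −0.74 (SE 0.04, limma adjusted p = 2.81e-08).
PMVK, the phosphomevalonate kinase, was lowest in B6TC and stood at 7.62 ± 0.067 for B6TC, against 7.94 ± 0.074 in MDA-MB-231 cells and 8.25 ± 0.10 in ZR-75-1 cells (mean and SD, n = 3 arrays each), and differed by −0.32 (SE 0.064, limma adjusted p = 0.00148) relative to MDA-MB-231 and by −0.63 (SE 0.064, limma adjusted p = 5.14e-06) from ZR-75-1. ACAT2, the cytosolic acetoacetyl-CoA thiolase that supplies the first intermediate, was highest in B6TC and stood at 10.47 ± 0.018 for B6TC, against 10.12 ± 0.026 in MDA-MB-231 cells and 10.22 ± 0.087 in ZR-75-1 cells. It exceeded MDA-MB-231 by 0.35 (SE 0.051, limma adjusted p = 0.000184) and ZR-75-1 by 0.24 (SE 0.051, limma adjusted p = 0.0011). MVK, the mevalonate kinase, was lower in B6TC relative to ZR-75-1 at −0.46 (SE 0.052, limma adjusted p = 1.15e-05), and its probe set of highest mean did not pass against MDA-MB-231 (−0.03, limma adjusted p = 0.66). FDPS, which joins isoprenoid units into farnesyl pyrophosphate, stood at 10.53 ± 0.05 for B6TC, against 10.54 ± 0.018 in MDA-MB-231 cells and 10.54 ± 0.087 in ZR-75-1 cells. It was the one member of this route that did not pass in any comparison, with log2 differences of −0.01 from MDA-MB-231 (limma adjusted p = 0.829) and −0.02 from ZR-75-1 (limma adjusted p = 0.798).

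All 10 measured genes from squalene to cholesterol were lower in MDA-MB-231 than in ZR-75-1, the median log2 difference being −1.22, and 9 were lower in B6TC relative to ZR-75-1, the median being −0.92. Against MDA-MB-231, 8 were higher in B6TC, 1 was lower and 1 was not called, and the median was 0.42. Of all tested genes, 36.4% were higher and 28.5% lower in that comparison. In B6TC relative to ZR-75-1, 41.8% of all tested genes were lower, and 42% were lower in MDA-MB-231 than in ZR-75-1. SQLE, the squalene epoxidase, read 8.10, 8.19 and 8.38 for B6TC, against 7.64, 7.60 and 7.73 in MDA-MB-231 cells and 11.38, 11.32 and 11.34 in ZR-75-1 cells. Among the members it was the gene furthest below ZR-75-1 in B6TC, at −3.13 (SE 0.069, limma adjusted p = 4.15e-11), an 8.74-fold lower level. It still exceeded MDA-MB-231 by 0.57 (SE 0.069, limma adjusted p = 5.45e-05). Of its 3 further probe sets, 1 was above the filter level of 6 in these lines and was higher there too (0.38, limma adjusted p = 0.00144), and the other 2 passed the filter through ZR-75-1 alone.
DHCR7, the reductase of the last step, read 8.81, 8.79 and 8.81 for B6TC, against 8.47, 8.34 and 8.32 in MDA-MB-231 cells and 10.88, 10.89 and 10.86 in ZR-75-1 cells. B6TC lay close above MDA-MB-231 and well below ZR-75-1. The differences were 0.43 (SE 0.048, limma adjusted p = 2.95e-05) and −2.08 (SE 0.048, limma adjusted p = 5.37e-11). TM7SF2, a sterol reductase, read 6.54, 6.66 and 6.68 for B6TC, against 6.32, 6.37 and 5.97 in MDA-MB-231 cells and 8.58, 8.59 and 8.43 in ZR-75-1 cells. It had the same order, with 1 MDA-MB-231 array at 5.97 below the others. Its differences were 0.40 (SE 0.10, limma adjusted p = 0.00512) and −1.91 (SE 0.10, limma adjusted p = 2.33e-08).
LSS, the cyclase that forms lanosterol, read 9.39, 9.32 and 9.39 for B6TC, against 8.93, 8.81 and 8.95 in MDA-MB-231 cells and 10.26, 10.27 and 10.29 in ZR-75-1 cells. B6TC differed by 0.47 (SE 0.05, limma adjusted p = 2.2e-05) relative to MDA-MB-231 and by −0.91 (SE 0.05, limma adjusted p = 3.42e-08) from ZR-75-1, and no arrays overlapped. CYP51A1, the lanosterol demethylase, read 8.78, 8.85 and 8.70 for B6TC, against 8.02, 7.98 and 7.99 in MDA-MB-231 cells and 9.56, 9.64 and 9.64 in ZR-75-1 cells. B6TC lay near the middle of the parental lines, 0.78 (SE 0.051, limma adjusted p = 9.4e-07) relative to MDA-MB-231 and −0.83 (SE 0.051, limma adjusted p = 7.69e-08) from ZR-75-1.
SC5D, a sterol desaturase, read 9.72, 9.76 and 9.72 for B6TC, against 9.44, 9.29 and 9.31 in MDA-MB-231 cells and 9.98, 10.14 and 10.03 in ZR-75-1 cells. B6TC again lay between the lines, at 0.39 (SE 0.057, limma adjusted p = 0.000192) and −0.31 (SE 0.057, limma adjusted p = 0.000467). HSD17B7, a keto reductase of the demethylation complex, read 8.35, 8.40 and 8.27 for B6TC, against 8.12, 7.98 and 8.20 in MDA-MB-231 cells and 8.93, 9.04 and 9.18 in ZR-75-1 cells. Its single probe set is of a kind that may bind several transcripts. The differences were 0.24 (SE 0.077, limma adjusted p = 0.0209) relative to MDA-MB-231 and −0.71 (SE 0.077, limma adjusted p = 8.26e-06) from ZR-75-1, and without the first or the second B6TC array the former did not pass (limma adjusted p = 0.0541 and 0.0721), nor without the second MDA-MB-231 array (limma adjusted p = 0.0822).
MSMO1, the methyl sterol oxidase of the demethylation complex, was the member furthest above MDA-MB-231 in B6TC. It read 10.56, 10.58 and 10.56 for B6TC, against 9.59, 9.48 and 9.54 in MDA-MB-231 cells and 10.42, 10.41 and 10.38 in ZR-75-1 cells. Each B6TC array was above every parental array. The difference was 1.03 (SE 0.043, limma adjusted p = 7.79e-08) from MDA-MB-231, a 2.04-fold higher level, and 0.16 (SE 0.043, limma adjusted p = 0.00503) from ZR-75-1.
EBP, the isomerase that shifts a sterol double bond, went the opposite way. It read 8.20, 8.20 and 8.30 for B6TC, against 9.33, 9.34 and 9.34 in MDA-MB-231 cells and 10.36, 10.50 and 10.35 in ZR-75-1 cells. Each B6TC array was below every parental array. The difference was −1.10 (SE 0.053, limma adjusted p = 1.59e-07) relative to MDA-MB-231 and −2.17 (SE 0.053, limma adjusted p = 7.49e-11) from ZR-75-1. The size against MDA-MB-231 depended on the probe set, at −0.26 (SE 0.081, limma adjusted p = 0.0165) and −0.11 (SE 0.10, limma adjusted p = 0.364) for its other tested probe sets, whereas all 3 were lower than in ZR-75-1, the others at −1.87 and −1.30. NSDHL, the decarboxylating dehydrogenase of the complex, was lower in B6TC relative to ZR-75-1 at −0.93 (SE 0.072, limma adjusted p = 5.8e-07) and did not pass against MDA-MB-231 at 0.05 (limma adjusted p = 0.589), while its other probe set was higher there at 0.38 (SE 0.058, limma adjusted p = 0.000261).

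**Figure D3:**
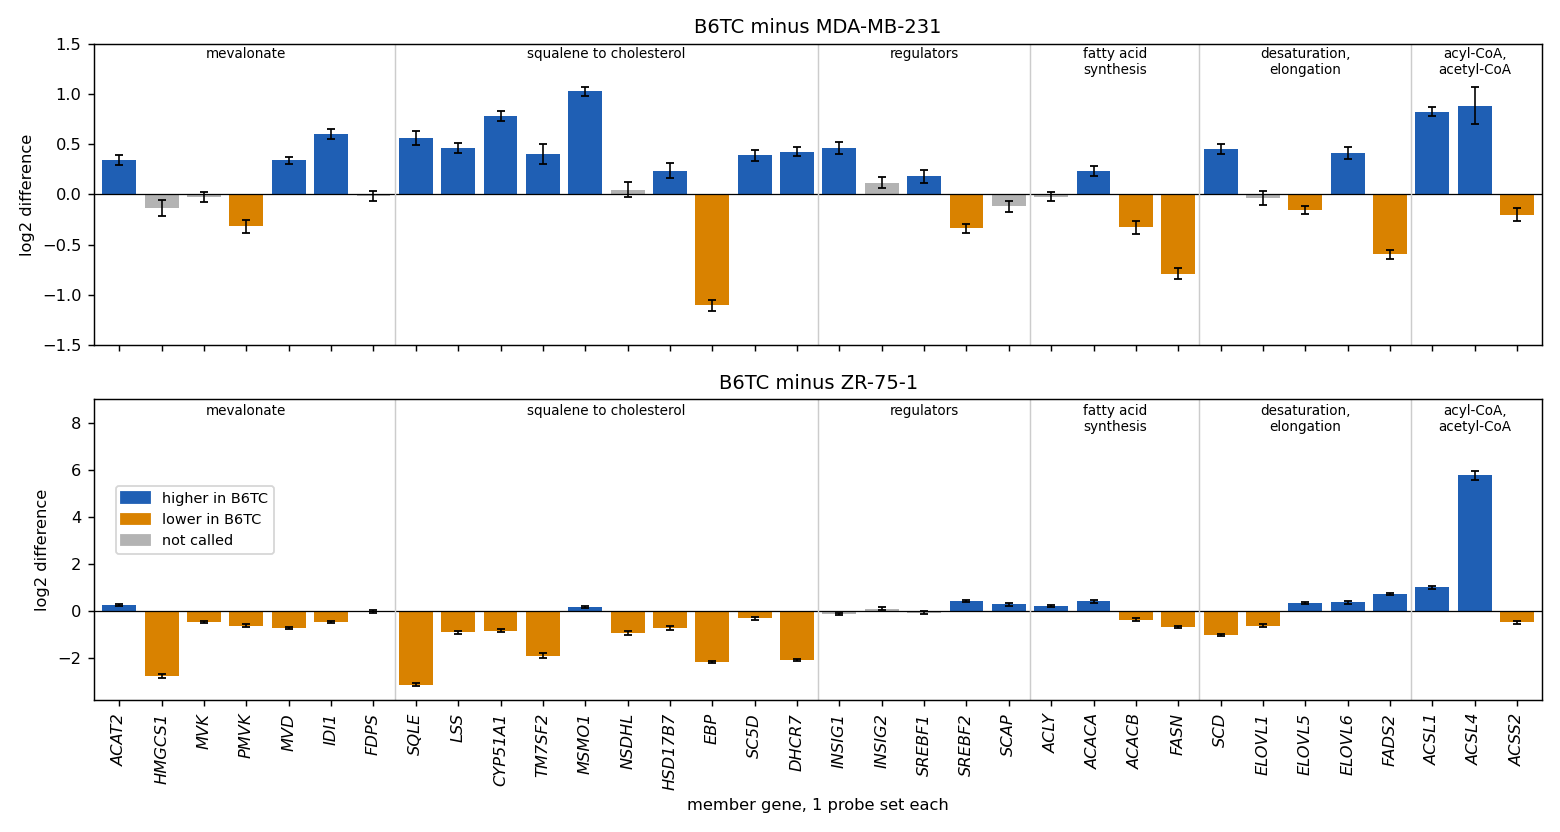
Log2 difference of B6TC from MDA-MB-231 (upper panel) and from ZR-75-1 (lower panel) on the y axis, for each of the 34 members on the x axis; error bars are the limma SE over 3 arrays per line, and the y scales differ. Blue bars were called higher in B6TC, orange bars lower and gray bars not called. Of the 10 genes from squalene to cholesterol, 8 are higher than in MDA-MB-231 (36.4% of all tested genes). Of the same 10, 9 are lower than in ZR-75-1 (41.8% of all tested genes).

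Of the 5 regulators, 2 were higher and 1 lower in B6TC relative to MDA-MB-231, and 2 were higher than in ZR-75-1. All tested genes were higher at 36.4% and lower at 28.5% in the first comparison, and at 42.7% and 41.8% in the second. SREBF2, which encodes the SREBP that acts mainly on sterol genes, read 7.66, 7.68 and 7.66 for B6TC, against 8.04, 8.06 and 7.92 in MDA-MB-231 cells and 7.22, 7.28 and 7.24 in ZR-75-1 cells. Its 3 tested probe sets did not agree against ZR-75-1, with 2 higher and 1 lower in B6TC and likewise in MDA-MB-231. At the probe set of highest mean, read here, the level was highest in MDA-MB-231 and lowest in ZR-75-1. B6TC differed there by −0.34 (SE 0.047, limma adjusted p = 0.000141) and 0.42 (SE 0.047, limma adjusted p = 1.2e-05). SCAP had the same order and stood at 8.64 ± 0.014 for B6TC, against 8.76 ± 0.071 in MDA-MB-231 cells and 8.36 ± 0.085 in ZR-75-1 cells. It passed against ZR-75-1 at 0.29 (SE 0.056, limma adjusted p = 0.000722) and not against MDA-MB-231 at −0.12 (limma adjusted p = 0.0924).
SREBF1, whose products act mainly on fatty acid genes, stood at 8.01 ± 0.06 for B6TC, against 7.83 ± 0.13 in MDA-MB-231 cells and 8.09 ± 0.046 in ZR-75-1 cells. Its excess over MDA-MB-231 of 0.18 (SE 0.066, limma adjusted p = 0.0356) was near the threshold, the arrays overlapped, and it was not called without the second or the third B6TC array (limma adjusted p = 0.107 and 0.0883) or without the second or the third MDA-MB-231 array (limma adjusted p = 0.133 and 0.0855). INSIG1, which is itself a target of SREBPs, was higher in B6TC relative to MDA-MB-231 by 0.46 (SE 0.058, limma adjusted p = 6.45e-05) at its probe set of highest mean, and its difference from ZR-75-1 of −0.13 did not pass (limma adjusted p = 0.0638). INSIG2, its relative, stood at 8.17 ± 0.057 for B6TC, against 8.05 ± 0.054 in MDA-MB-231 cells and 8.07 ± 0.06 in ZR-75-1 cells, and passed in no comparison.

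Of the 4 fatty acid synthesis genes, 1 was higher and 2 lower in B6TC relative to MDA-MB-231, and 2 were higher and 2 lower relative to ZR-75-1. The shares over all tested genes were 36.4% and 28.5%, and 42.7% and 41.8%. FASN, the synthase that builds palmitate, read 8.69, 8.77 and 8.78 for B6TC, against 9.58, 9.55 and 9.47 in MDA-MB-231 cells and 9.42, 9.49 and 9.37 in ZR-75-1 cells. The parental arrays overlapped, and every B6TC array lay below them. The log2 difference was −0.79 (SE 0.052, limma adjusted p = 9.58e-07) against MDA-MB-231, a 1.73-fold lower level, and −0.68 (SE 0.052, limma adjusted p = 4.47e-07) against ZR-75-1. The parental difference of 0.11 did not pass (limma adjusted p = 0.0758).
ACACA, which encodes the carboxylase that makes malonyl-CoA for synthesis, was higher in B6TC relative to both, by 0.24 (SE 0.047, limma adjusted p = 0.00137) and 0.41 (SE 0.047, limma adjusted p = 1.32e-05), at its probe set of highest mean. ACACB, the mitochondrial carboxylase that restrains oxidation, was lower, with log2 differences of −0.33 (SE 0.066, limma adjusted p = 0.00148) and −0.37 (SE 0.066, limma adjusted p = 0.000404), at its probe set of highest mean. At the probe set read under a filter on level and variation, the difference from MDA-MB-231 did not pass (−0.06, limma adjusted p = 0.610). ACLY was higher than in ZR-75-1 by 0.20 (SE 0.045, limma adjusted p = 0.00183), and at its probe set of highest mean did not pass against MDA-MB-231 (−0.02, limma adjusted p = 0.658).

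Of the 5 desaturases and elongases, 2 were higher and 2 lower in B6TC relative to MDA-MB-231, and 3 were higher and 2 lower relative to ZR-75-1. These counts lie near the shares of all tested genes, 36.4% and 28.5% in the first comparison and 42.7% and 41.8% in the second. SCD, which puts the first double bond into saturated chains, read 10.52, 10.61 and 10.56 for B6TC, against 10.16, 10.08 and 10.10 in MDA-MB-231 cells and 11.62, 11.53 and 11.60 in ZR-75-1 cells. It followed the order of the sterol genes, and its 4 probe sets were all higher than in MDA-MB-231 and lower than in ZR-75-1. B6TC differed by 0.45 (SE 0.047, limma adjusted p = 1.85e-05) and −1.02 (SE 0.047, limma adjusted p = 8.52e-09). FADS2, a desaturase of polyunsaturated fatty acids, read 8.16, 8.07 and 8.16 for B6TC, against 8.76, 8.70 and 8.73 in MDA-MB-231 cells and 7.40, 7.37 and 7.43 in ZR-75-1 cells. It was highest in MDA-MB-231 and lowest in ZR-75-1, with B6TC close to midway, at −0.60 (SE 0.045, limma adjusted p = 2.29e-06) and 0.73 (SE 0.045, limma adjusted p = 8.6e-08).
ELOVL5, an elongase of polyunsaturated chains, had the order of FADS2 at a smaller size. It read 10.89, 10.93 and 10.89 for B6TC, against 11.04, 11.07 and 11.06 in MDA-MB-231 cells and 10.56, 10.62 and 10.56 in ZR-75-1 cells, and differed by −0.15 (SE 0.04, limma adjusted p = 0.00749) and 0.32 (SE 0.04, limma adjusted p = 2.68e-05). ELOVL6, which elongates palmitate, was highest in B6TC and stood at 9.57 ± 0.027 for B6TC, against 9.16 ± 0.11 in MDA-MB-231 cells and 9.21 ± 0.054 in ZR-75-1 cells. Its excess was 0.41 (SE 0.058, limma adjusted p = 0.000145) and 0.36 (SE 0.058, limma adjusted p = 0.000188) at the probe set of highest mean. ELOVL1, an elongase of very long chains, was lower in B6TC relative to ZR-75-1, with a log2 difference of −0.62 (SE 0.071, limma adjusted p = 1.41e-05) and did not pass against MDA-MB-231 (−0.04, limma adjusted p = 0.667).

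Of the 3 synthetases, 2 were higher and 1 lower in B6TC relative to each parental line, where all tested genes were higher at 36.4% (MDA-MB-231) and 42.7% (ZR-75-1). ACSL4, an acyl-CoA synthetase that prefers arachidonic acid, had the widest range of the members. It read 8.81, 8.81 and 8.69 for B6TC, against 8.27, 7.72 and 7.65 in MDA-MB-231 cells and 2.62, 3.13 and 3.25 in ZR-75-1 cells. The ZR-75-1 arrays were near background, and the B6TC arrays were above all others. B6TC exceeded ZR-75-1 by 5.77 (SE 0.18, limma adjusted p = 5.05e-10), a size that values near background may understate, and MDA-MB-231 by 0.89 (SE 0.18, limma adjusted p = 0.00175). MDA-MB-231 array 1, at 8.27, stood above its other arrays. ACSL1, a synthetase of broad use for long chains, read 8.98, 8.93 and 8.87 for B6TC, against 8.11, 8.08 and 8.11 in MDA-MB-231 cells and 7.94, 7.87 and 7.96 in ZR-75-1 cells. Each B6TC array was above every parental array, at 0.83 (SE 0.046, limma adjusted p = 3.99e-07) and 1.00 (SE 0.046, limma adjusted p = 8.41e-09). Its other probe set did not pass against MDA-MB-231 (−0.05, limma adjusted p = 0.411) but exceeded ZR-75-1 by 0.54 (SE 0.055, limma adjusted p = 5.53e-06). ACSS2, which makes acetyl-CoA from acetate, was lowest in B6TC and stood at 7.22 ± 0.11 for B6TC, against 7.42 ± 0.015 in MDA-MB-231 cells and 7.70 ± 0.088 in ZR-75-1 cells. It differed by −0.20 (SE 0.064, limma adjusted p = 0.0183) from MDA-MB-231, which did not pass without the first or the third B6TC array (limma adjusted p = 0.0520 and 0.0723), and by −0.48 (SE 0.064, limma adjusted p = 4.43e-05) from ZR-75-1.

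B6TC lay between the parental lines, with both differences past the test, at 13 of the 34 genes (38.2%, against 21.7% of tested genes). These were MVD, IDI1, SQLE, LSS, CYP51A1, TM7SF2, HSD17B7, SC5D, DHCR7, SREBF2, SCD, ELOVL5 and FADS2, of which 7 belong to the 10 genes from squalene to cholesterol. It lay above both at 6 (17.6%, against 20%), namely ACAT2, MSMO1, ACACA, ELOVL6, ACSL1 and ACSL4, and below both at 5 (14.7%, against 14.7%), namely PMVK, EBP, ACACB, FASN and ACSS2. For ACACA and ELOVL6 the place above both held at the probe set of highest mean and turned with the probe set, to −1.93 against ZR-75-1 at the other ACACA probe set and to −0.46 against MDA-MB-231 at 1 ELOVL6 probe set. ACACA also turned under the mean of its probe sets, to −0.76 against ZR-75-1. The place of ACACB below both depended on the probe set too, at −0.06 against MDA-MB-231 under a filter on level and variation (limma adjusted p = 0.610). The same holds for ACSL1 above both and EBP below both, whose difference from MDA-MB-231 did not pass at another probe set. SREBF2, placed between, had an opposite call against ZR-75-1 at another probe set. A position scale with MDA-MB-231 at 0 and ZR-75-1 at 1 was used for the 12 members that differed at least 2-fold between the parental lines. Its median was 0.241, against 0.0341 over the 3471 genes that differed as much. Leaving out 1 B6TC array at a time gave 0.232 to 0.251 for the members and 0.0247 to 0.0429 for all such genes. The comparisons share arrays, so these positions are a description.
IDI1 lay at 0.560, CYP51A1 at 0.483 and FADS2 at 0.449. LSS, MVD and SCD followed at 0.340, 0.315 and 0.307. TM7SF2, DHCR7 and SQLE lay closer to MDA-MB-231, at 0.175, 0.171 and 0.153. HMGCS1, ACSL4 and EBP had B6TC means outside the parental range, at −0.0514, −0.182 and −1.03. HMGCS1 did not pass against MDA-MB-231 (limma adjusted p = 0.174), and the EBP position is that of its probe set of highest mean, its others lying closer to MDA-MB-231.

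**Figure D4:**
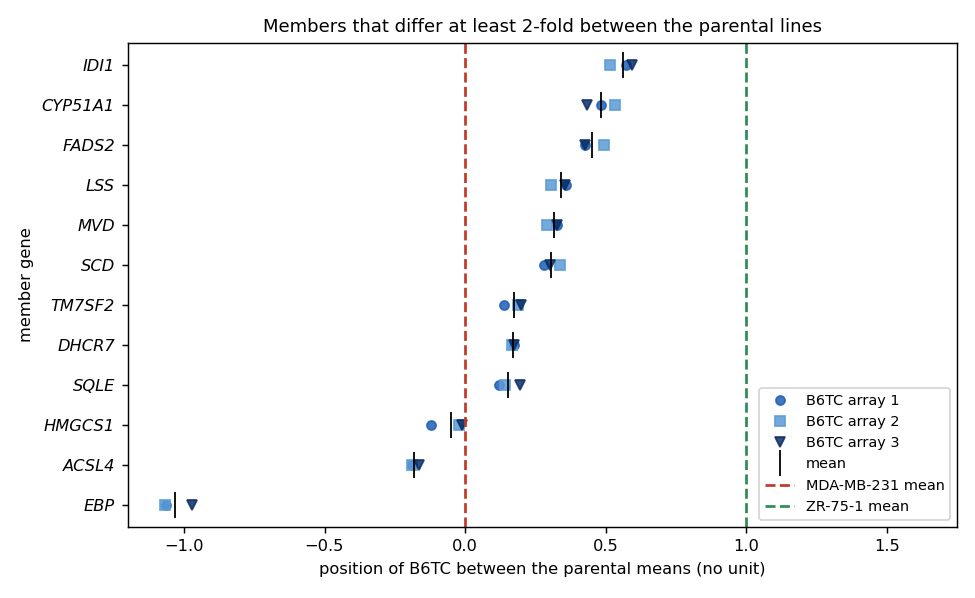
Position of B6TC (x axis, no unit) between the MDA-MB-231 mean (red dashed line, 0) and the ZR-75-1 mean (green dashed line, 1) for the 12 members that differ at least 2-fold between them (y axis); each symbol is 1 B6TC array and the black bar is their mean. From SQLE to IDI1, 9 genes lie between the lines, nearest to the middle at CYP51A1 (0.483). EBP lies beyond MDA-MB-231 at its probe set of highest mean.

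The probe sets of a gene did not always give the same call. Of the 16 members with several tested probe sets, 4 had the same call on all of them when B6TC was set against MDA-MB-231, 11 when it was set against ZR-75-1, and 12 for the parental difference. Over all 63 tested probe sets of the members, 30 were higher and 16 lower than in MDA-MB-231 (against 33.9% and 31.3% of all tested probe sets), and 15 higher and 41 lower than in ZR-75-1 (against 43% and 40.6%). Both these counts and the agreement above include probe sets that passed the filter through ZR-75-1 alone, such as further ones of HMGCS1 and SQLE. Their lower calls against ZR-75-1 follow from how they passed. Their calls between B6TC and MDA-MB-231 rest on values under the filter level. Opposite calls against MDA-MB-231 were found for MVK, INSIG1 and ELOVL6. INSIG1 was lower at a second probe set, with a log2 difference of −0.19 (SE 0.049, limma adjusted p = 0.00668), and not called at another. Both of these were lower than in ZR-75-1, each at −0.62. MVK was higher at 1 of its further probe sets by 0.45 (SE 0.056, limma adjusted p = 5.74e-05) and lower at another, with a log2 difference of −0.17 (SE 0.048, limma adjusted p = 0.0105), and ELOVL6 was lower at 1 of its 3, with a log2 difference of −0.46 (SE 0.052, limma adjusted p = 3.17e-05).
Opposite calls against ZR-75-1 were found for SREBF2 and ACACA. Between the parental lines these genes had opposite calls too, SREBF2 at 2 probe sets higher and 1 lower in MDA-MB-231, and ACACA at 1 each. For B6TC the values were as follows. SREBF2 was lower at 1 of its 3, with a log2 difference of −0.28 (SE 0.09, limma adjusted p = 0.0157), where the other probe sets were higher. ACACA was lower at its other probe set, with a log2 difference of −1.93 (SE 0.11, limma adjusted p = 3.18e-08), whose B6TC and MDA-MB-231 arrays were near background at means of 5.37 and 5.22. ACLY was lower than in MDA-MB-231 at its other probe sets, with log2 differences of −0.72 (SE 0.057, limma adjusted p = 3.04e-06) and −0.59 (SE 0.049, limma adjusted p = 3.86e-06).

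**Figure D5:**
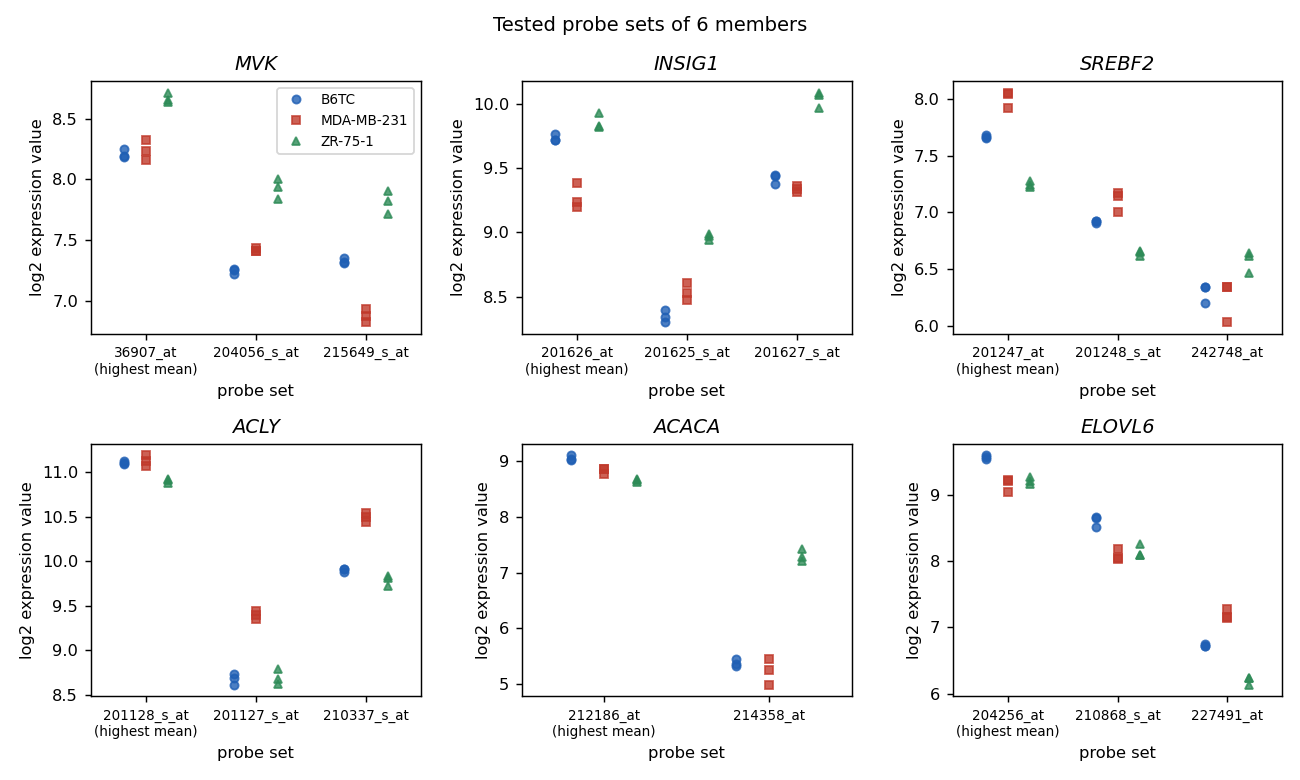
Log2 expression (y axis) at each tested probe set (x axis) of MVK, INSIG1, SREBF2, ACLY, ACACA and ELOVL6; each symbol is 1 array, and the y scales differ between panels. At ELOVL6, B6TC is above MDA-MB-231 at 2 probe sets and below it at 1, and at ACACA, ZR-75-1 is lowest at 1 probe set and highest at the other.

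Other genes of the same routes were taken from lists. Of 9 further isoprenoid and sterol genes tested, 4 were higher and 3 lower than in MDA-MB-231, and 4 higher and 3 lower than in ZR-75-1. These shares of 44.4% and 33.3% lay near those of all tested genes, 36.4% and 28.5% against MDA-MB-231 and 42.7% and 41.8% against ZR-75-1. SOAT1, which esterifies cholesterol for storage, was higher in B6TC relative to both, by 0.67 (SE 0.065, limma adjusted p = 1.13e-05) and 1.31 (SE 0.065, limma adjusted p = 1.4e-08). STARD4, a cholesterol carrier, was higher than in ZR-75-1 by 1.61 (SE 0.045, limma adjusted p = 2e-10), and FNTB, a farnesyltransferase subunit, was lower than in MDA-MB-231, with a log2 difference of −0.62 (SE 0.055, limma adjusted p = 6.21e-06). GGPS1, which makes geranylgeranyl pyrophosphate, had the largest parental difference of this list, at −1.38 (SE 0.049, limma adjusted p = 1.23e-09).
Of 5 tested genes of SREBP proteases and sterol export, 2 were higher and 1 lower than in MDA-MB-231 (all tested genes 36.4% and 28.5%), and 2 were lower than in ZR-75-1 (all tested genes 41.8%). ABCG1, a sterol exporter among the higher calls, passed the filter through ZR-75-1 alone and stood at 3.71 ± 0.055 for B6TC, against 3.09 ± 0.15 in MDA-MB-231 cells and 6.44 ± 0.035 in ZR-75-1 cells, with B6TC and MDA-MB-231 near background, and NR1H3, the sterol receptor LXRα, was lower than in MDA-MB-231, with a log2 difference of −0.44 (SE 0.053, limma adjusted p = 5.12e-05). MBTPS1, the first protease that releases SREBPs, was lower than in ZR-75-1, with a log2 difference of −0.58 (SE 0.06, limma adjusted p = 5.31e-06).
Of 14 further fatty acid synthesis genes tested, 5 were higher and 3 lower than in MDA-MB-231 (all tested genes 36.4% and 28.5%), and 5 higher and 9 lower than in ZR-75-1 (all tested genes 42.7% and 41.8%). ELOVL7, among the higher calls against MDA-MB-231, stood under the filter level in both lines, at 5.72 and 5.22. ME1, the malic enzyme that supplies NADPH, was above MDA-MB-231 by 1.67 (SE 0.054, limma adjusted p = 1.79e-08), more than any member. HACD3, a dehydratase of chain elongation, was lower, with a log2 difference of −0.66 (SE 0.044, limma adjusted p = 1.06e-06). ELOVL2, an elongase of polyunsaturated chains, was highest in ZR-75-1 and stood at 3.72 ± 0.89 for B6TC, against 3.57 ± 0.17 in MDA-MB-231 cells and 9.66 ± 0.22 in ZR-75-1 cells. ACSL5, a further synthetase, was near background in ZR-75-1 as ACSL4 was and stood at 8.96 ± 0.075 for B6TC, against 9.05 ± 0.084 in MDA-MB-231 cells and 4.18 ± 0.45 in ZR-75-1 cells.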

How the data were processed

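RNA from near-confluent cultures was read on 9 Affymetrix arrays, 3 for each of the 3 lines. Each deposited value is the log2 expression of a probe set. The processing notes name RMA in Affymetrix Expression Console, while the study's methods describe another summary, so the exact background step is uncertain, and both shrink differences of probes near background. An array gives no read depth, and the number of arrays limits the precision: the median SD between arrays of a line was 0.0574 over the members.
Of 54675 probe sets, 62 controls were left out, and 21095 had a log2 value of at least 6 on at least 3 arrays. Platform symbols were updated by gene identifier: 41091 probe sets carried 1 symbol, 1801 several and 11721 none, and 388 of those with several were named through their RefSeq accession. Each of 10922 genes was read by its tested probe set of highest mean. All 3 lines were fitted together with limma 3.58.1 (R 4.3.3), without a block, and p-values were adjusted by Benjamini-Hochberg over all tested probe sets of a comparison, with calls at an adjusted p of 0.05 or less. The 3 comparisons share arrays. The fit was tested on simulated data.
All members were named. Values on every array were given for members among the 12 largest differences of any comparison or with differing directions, and for MSMO1, FASN and ACSL1, added after their values were seen. Of each further list, the 2 called genes with the largest difference in each comparison were named. Members and lists were chosen with earlier results of these data known. Same-numbered arrays were compared by the correlation of their deviations from the line means, which was above 0.1 in 1 of 9 pairs (range −0.102 to 0.176), so the numbers were not taken to pair arrays. Alternatives were another filter, no filter, other normalizations and variance models, fewer probe sets, their mean, the compared lines alone and each array left out. Promoter sequences were RefSeq windows on GRCh38.p14, searched with Python 3.11.15.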

Additional observations from a re-analysis of the deposited data

How the results depend on the processing

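Of 1872 values of single members under the alternatives, 1817 kept their direction and side of the threshold, 28 newly passed it, 20 no longer passed and 7 changed sign. These pool the 3 comparisons. Against MDA-MB-231, 19 of the 34 members were the same under every alternative. Against ZR-75-1 these were 31, and for the parental pair 29. Restricting to calls of at least 2-fold left 1 higher and 1 lower member against MDA-MB-231, 2 and 6 against ZR-75-1, and 2 and 10 for the parental pair. Without probe sets that may bind several transcripts, 20 members remained, with 10 higher and 4 lower against MDA-MB-231, 7 and 9 against ZR-75-1 (median −0.10), and 5 and 11 for the parental pair. B6TC then lay below both at 2 and between them at 6. A filter on level and variation kept 26 members, with 7 higher than in ZR-75-1 (median −0.70), a parental median of −0.91, and 3 above and 3 below both lines. The mean over probe sets gave medians of −0.51 against ZR-75-1 and −0.60 for the parental pair. The sign turned at ACACA, to −1.93 under the filter on variation and −0.76 under the mean against ZR-75-1, and to −2.09 and −0.96 between the parental lines. It turned at ELOVL6 to −0.46 against MDA-MB-231 under that filter, and to 0.99 and 0.29 between the parental lines. Both have probe sets of opposite direction. Leaving out 1 array at a time gave 16 to 19 higher and 7 to 8 lower than MDA-MB-231 (median 0.16 to 0.22), 11 higher and 19 to 20 lower than ZR-75-1 (median −0.43 to −0.39), 8 to 9 higher and 20 to 21 lower between the parental lines (median −0.40 to −0.34), and 6 above, 4 to 5 below and 12 to 15 between. With the replicate number as a block, counts were 17 higher and 8 lower than MDA-MB-231, 11 and 19 against ZR-75-1, 8 and 20 between the parental lines, and 6 above, 5 below and 13 between. SREBF1 was the call against MDA-MB-231 lost under the block (limma adjusted p = 0.0583). Values under the filter level in 1 or more lines limit ACSL4, ABCG1, ACSL5, ELOVL2, ELOVL7, FABP5, PLIN2, DGAT2 and further probe sets of HMGCS1, SQLE, ACACA and ACACB, whose differences from the other lines may be understated. The same holds for the markers CAV1, AXL, ETS1, ZEB1 and CDH1.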

Other observations

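Of 13 fatty acid oxidation genes tested, 5 were higher and 6 lower in B6TC relative to MDA-MB-231 (38.5% and 46.2%, against 36.4% and 28.5% of all tested genes), and 4 higher and 8 lower than in ZR-75-1 (30.8% and 61.5%, against 42.7% and 41.8%). CPT1A, which admits long chains to the mitochondrion, stood at 6.58 ± 0.057 for B6TC, against 7.23 ± 0.07 in MDA-MB-231 cells and 9.69 ± 0.039 in ZR-75-1 cells (mean and SD, n = 3 arrays each). It was lower in B6TC, with log2 differences of −0.65 (SE 0.052, limma adjusted p = 3.31e-06) against MDA-MB-231 and −3.11 (SE 0.052, limma adjusted p = 6.63e-12) against ZR-75-1. ACADM, the medium-chain dehydrogenase, was higher than in both, by 0.64 (SE 0.083, limma adjusted p = 8.76e-05) and 0.95 (SE 0.083, limma adjusted p = 1.48e-06). ECI1, an isomerase for unsaturated chains, was lower than in ZR-75-1, with a log2 difference of −1.43 (SE 0.056, limma adjusted p = 2.62e-09).
Of 9 genes of uptake and storage tested, 4 were higher and 1 lower than in MDA-MB-231 (44.4% and 11.1%, against 36.4% and 28.5% of all tested genes), and 7 higher and 2 lower than in ZR-75-1 (77.8% and 22.2%, against 42.7% and 41.8%). FABP5, a fatty acid carrier, stood at 11.15 ± 0.051 for B6TC, against 10.46 ± 0.0098 in MDA-MB-231 cells and 4.54 ± 0.031 in ZR-75-1 cells, and was higher by 0.69 (SE 0.043, limma adjusted p = 7.3e-07) and 6.61 (SE 0.043, limma adjusted p = 3.95e-14). Its level in ZR-75-1 was under the filter level, so the size of the second difference may be understated. Near-identical copies of FABP5 could share its probes. PLIN2, a coat protein of lipid droplets, was higher than in ZR-75-1 by 3.51 (SE 0.077, limma adjusted p = 4.05e-11) and did not pass against MDA-MB-231 (−0.14, limma adjusted p = 0.136). PLIN3, a relative, was above MDA-MB-231 by 0.66 (SE 0.05, limma adjusted p = 2.35e-06).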
